A study of Mus musculus with 8 samples.

Results

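The membrane adenylyl cyclases, encoded by *Adcy1* to *Adcy9*, are a family of 9 enzymes that were followed by gene symbol on adrenal expression arrays. A member was represented by the transcript cluster (the group of probes that measures a gene) annotated to its symbol alone. Of the 9 members, 8 had such a cluster, among 21905 gene symbols measured in all, and none of the 8 had a further one. The only cluster of *Adcy3* is annotated to *Adcy3* and *Cenpo* together, and these genes overlap in the RefSeq annotation. Its signal cannot be assigned to either, so no value is given for *Adcy3*.

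RNA of whole adrenals came from 4 wild-type mice and 4 *Sf1:Cre;Prkar1a Fl/Fl* mice, hereafter knockout, all female and 6 weeks old, with littermates as controls. *Sf1:Cre* drives recombination in all steroidogenic cells of the cortex from the time it forms, and loss of *Prkar1a* removes a regulatory subunit that holds the catalytic subunits of PKA inactive. The labels call the controls WT and do not say whether they carried floxed alleles. Each of the 8 samples was hybridised to its own Affymetrix Mouse Gene 2.0 ST array, and the labels call them biological replicates. Expression is given throughout as the deposited RMA value on the log2 scale, as mean ± SD, and changes are knockout minus wild-type. Precision is limited by there being 4 arrays per genotype.

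Adenylyl cyclases convert ATP to cAMP, the second messenger that releases the catalytic subunits of PKA. In the adrenal cortex, ACTH acts through the melanocortin 2 receptor and the stimulatory G protein to switch on these enzymes, and the cAMP formed drives glucocorticoid synthesis. The isoforms share a catalytic core and differ in how calcium, calmodulin, G protein subunits and kinases adjust it. The question here is which isoforms could be measured in the gland and which changed in adrenals with constitutive PKA activity.

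The targeted gene was read first. *Prkar1a* was at 8.83, 9.11, 9.04 and 8.70 in wild-type replicates 1 to 4 and at 6.92, 7.30, 7.35 and 7.19 in knockout replicates 1 to 4. The knockout values were all below the lowest wild-type value, in the direction of the labels. The change was -1.73 (SE 0.117, limma adjusted p = 1.19e-05). Array medians ran from 5.83 to 5.89, and arrays of the same genotype correlated at 0.990 to 0.995, above the 0.978 to 0.984 of arrays of different genotype. Markers of steroidogenic cortex had array means of 11.82 to 12.21, those of chromaffin cells, the hormone-secreting cells of the medulla, 9.05 to 9.53, and those of kidney, a neighbouring organ, 4.86 to 5.05.

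Among the 8 adenylyl cyclases measured, *Adcy5*, *Adcy9* and *Adcy1* were lower in knockout adrenals and none was called higher. *Adcy5* was lower by a factor of 1.46 and *Adcy9* by a factor of 1.39, both with no overlap between genotypes. With the mean of adipocyte markers as a covariate neither was called, at changes of -0.30 (limma adjusted p = 0.28) and -0.56 (limma adjusted p = 0.0559). *Adcy1* was lower by a factor of 1.20, at a signal within the range of genes not expected in the gland, and its call did not hold when any 1 array was left out. *Adcy6*, *Adcy7*, *Adcy4*, *Adcy2* and *Adcy8* did not pass the test. Calls were made with limma, two-sided, at a threshold of 0.05 on p-values adjusted by the Benjamini–Hochberg method over 22822 clusters with 1 gene symbol. Of all clusters tested, 13.5% were called, 6.17% as lower and 7.35% as higher, and 19.0% had no overlap between genotypes. For adenylyl cyclases the counts were 3 lower, 0 higher and 5 not called, with no overlap in 3. For the 0 called higher, limma also found 0 higher at an unadjusted p under 0.05, and the methods' t-test and the other settings called 0 higher. The median change of the 8 members was -0.118, against -0.0198 over all clusters, and 0 members passed the limit of 1 on the log2 change that the methods add. In RNA of a whole gland, fewer cells of a type and less RNA per cell cannot be told apart.

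**Figure D1:**
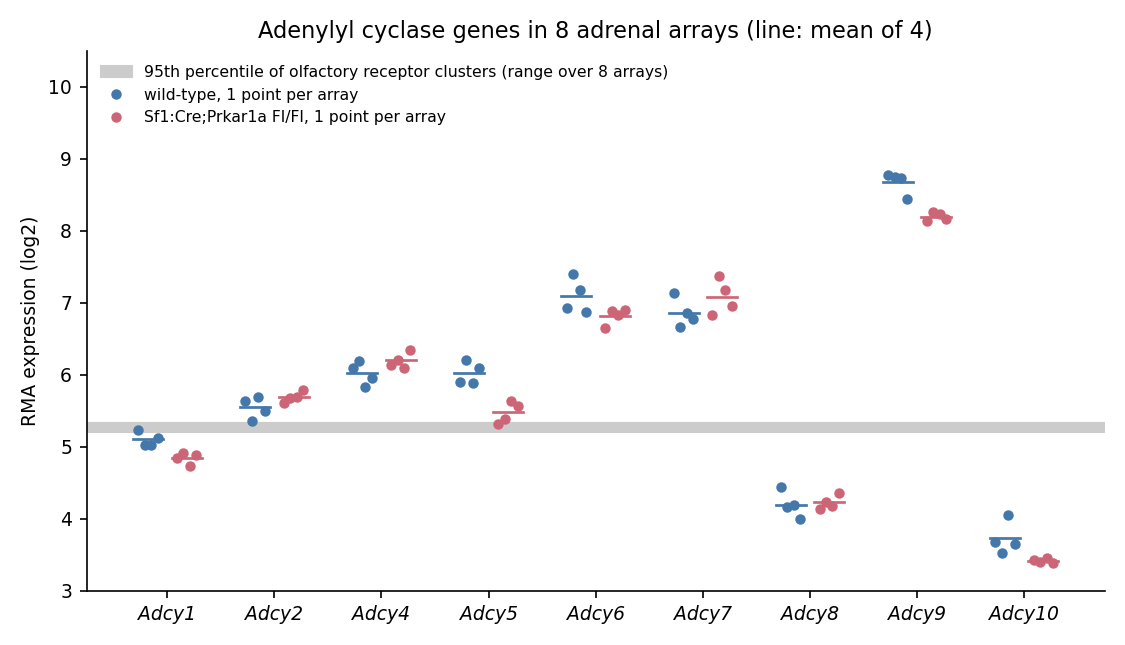
RMA expression on the log2 scale (vertical axis) of the 8 measured membrane adenylyl cyclases and of *Adcy10*, the soluble enzyme, with 1 point per array, wild-type in blue and knockout in red, and a line at the mean of 4 arrays. The grey band spans the 95th percentile of olfactory receptor clusters over the 8 arrays, from 5.21 to 5.33, and *Adcy1*, *Adcy8* and *Adcy10* lie below that percentile on all 8 arrays.

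The arrays carry no detection call, so the 1107 clusters of olfactory receptor genes, which are expected to be silent outside the olfactory epithelium, served as a rough background. Their 95th percentile lay between 5.21 and 5.33 on the 8 arrays. *Adcy2*, *Adcy4*, *Adcy5*, *Adcy6*, *Adcy7* and *Adcy9* were above it on all 8 arrays, while *Adcy1* and *Adcy8* were above it on 0. Measured from that percentile on each array, *Adcy9* stood 3.40 higher in wild-type and 2.97 higher in knockout adrenals. *Adcy6* stood 1.82 and 1.59 higher, and *Adcy7* 1.58 and 1.85. *Adcy5* stood 0.75 above background in wild-type and 0.25 in knockout adrenals, so its signal in knockouts was close to that of background. *Adcy4* stood 0.74 and 0.97 above it and *Adcy2* 0.27 and 0.46. With 283 vomeronasal receptor clusters as background, 5 members were above the 95th percentile on all arrays, without *Adcy2*. Above the 99th percentile of olfactory receptors there were 3, *Adcy6*, *Adcy7* and *Adcy9*. The 99th percentile of vomeronasal receptors, 6.45 to 7.03 over the arrays, left 1 above it on all arrays, *Adcy9*. Probes differ in their response, so these distances do not rank the isoforms by amount of RNA.

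*Adcy5* and *Adcy6* encode the closely related isoforms that the inhibitory G protein and calcium restrain, and that PKA itself can phosphorylate and inhibit. *Adcy5* was at 5.90, 6.20, 5.89 and 6.10 in wild-type replicates 1 to 4 and at 5.32, 5.39, 5.64 and 5.56 in knockout replicates 1 to 4. All 4 knockout arrays lay below the lowest wild-type array. The means were 6.02 ± 0.155 and 5.48 ± 0.146 (SD, n = 4), and the change was -0.55 (SE 0.0982, 95% interval -0.77 to -0.33, limma adjusted p = 0.00397). *Adcy6* was at 6.92, 7.40, 7.18 and 6.87 in wild-type and at 6.65, 6.89, 6.83 and 6.90 in knockout adrenals. The genotypes overlapped, since wild-type replicate 4 lay below knockout replicates 2 and 4. Its change of -0.27 (SE 0.117, 95% interval -0.53 to -0.013) had an unadjusted p of 0.0413 and an adjusted p of 0.171 from limma, and was not called.

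*Adcy9* encodes the most divergent membrane isoform, which responds poorly to forskolin, the plant compound that activates the other membrane isoforms. It was at 8.78, 8.75, 8.73 and 8.44 in wild-type and at 8.14, 8.26, 8.23 and 8.16 in knockout adrenals. Wild-type replicate 4 stood apart from the other wild-type arrays and still lay above every knockout array. The means were 8.68 ± 0.16 and 8.20 ± 0.0565 (SD, n = 4), and the change was -0.48 (SE 0.0851, 95% interval -0.66 to -0.29, limma adjusted p = 0.00395). Without wild-type replicate 4 the change was -0.56 (limma adjusted p = 0.000703). An alternative test that takes the variances of the genotypes as unequal gave *Adcy9* an adjusted p of 0.0757.

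*Adcy1* and *Adcy8* encode the isoforms that calcium and calmodulin stimulate, best known from the brain. *Adcy1* was at 5.23, 5.03, 5.03 and 5.12 in wild-type and at 4.84, 4.91, 4.73 and 4.88 in knockout adrenals. The genotypes did not overlap, but every value lay below the background percentile of its array. The change was -0.26 (SE 0.073, 95% interval -0.42 to -0.10, limma adjusted p = 0.038). Leaving out each of the 8 arrays in turn gave changes of -0.29 to -0.22 with limma adjusted p-values of 0.0503 to 0.106, so the call rested on having all 8. *Adcy8*, also below background on all 8 arrays, had means of 4.20 ± 0.187 and 4.22 ± 0.097 (SD, n = 4). Its change of 0.027 (SE 0.0975, 95% interval -0.19 to 0.24, limma adjusted p = 0.904) was smaller than the spread between replicates.

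*Adcy2*, *Adcy4* and *Adcy7* encode the isoforms that G protein beta and gamma subunits can stimulate together with the stimulatory alpha subunit. None of the 3 was called, and in each the knockout mean was the higher one. *Adcy7* was at 7.14, 6.66, 6.86 and 6.77 in wild-type and at 6.83, 7.37, 7.17 and 6.96 in knockout adrenals, a difference of 0.22 (SE 0.132, 95% interval -0.0688 to 0.52, limma adjusted p = 0.33). *Adcy4* was at 6.09, 6.19, 5.83 and 5.96 and at 6.14, 6.21, 6.10 and 6.35, a difference of 0.18 (SE 0.0916, 95% interval -0.0196 to 0.39, limma adjusted p = 0.242). *Adcy2* ran from 5.36 to 5.69 in wild-type and from 5.60 to 5.79 in knockout adrenals, a difference of 0.14 (SE 0.0853, 95% interval -0.0457 to 0.33, limma adjusted p = 0.335). The genotypes overlapped in all 3, and the intervals leave room for rises of 0.52, 0.39 and 0.33 as well as for small falls. Whether the changes of these isoforms differ from those of *Adcy5* and *Adcy9* was not tested.

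**Figure D2:**
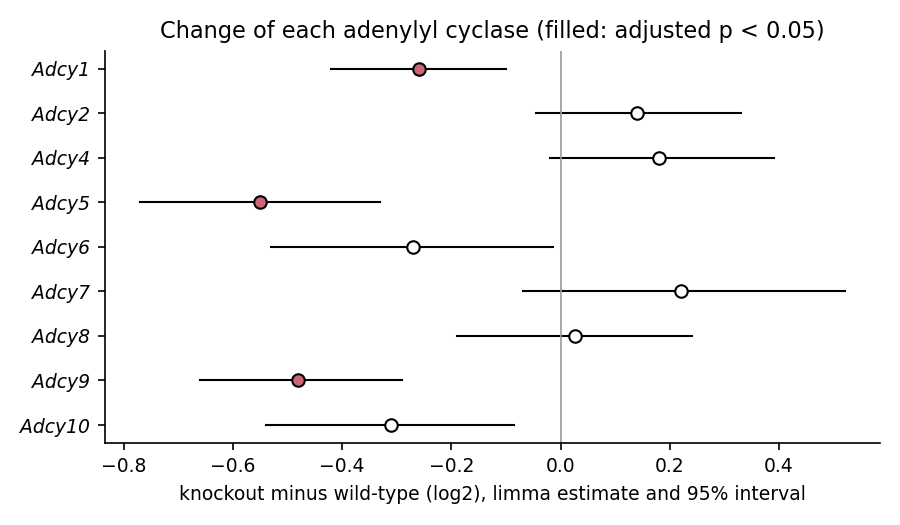
Change of each adenylyl cyclase in knockout adrenals (horizontal axis, log2) as limma estimated it, with its 95% interval, and filled points for an adjusted p under 0.05. *Adcy5* at -0.55, *Adcy9* at -0.48 and *Adcy1* at -0.26 are filled, and the interval of *Adcy6* ends just below 0 at -0.013.

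The promoters of the 3 called members are shown because each was called lower by limma, with the limits given above for *Adcy1*, and because PKA phosphorylates the cAMP response element binding protein. Each window runs from 250 bases before to 50 after the start of transcription and was taken from RefSeq (build GRCm38.p6), written 5′ to 3′ on the strand of the gene. Of the 8 members measured, *Adcy6* and *Adcy8* were not matched to a window. Capitals mark matches, on either strand, to the cAMP response element TGACGTCA, to its first part TGACG, which the full element also holds on both strands, or to CAAGGNCA, a site form bound by SF-1, the nuclear receptor of steroidogenic cells. The *Adcy5* window (chr16:35154614-35154913, plus strand) holds none of these, the *Adcy9* window (chr16:4420449-4420748, minus strand) holds TGACG, and the *Adcy1* window (chr11:7063183-7063482, plus strand) holds the SF-1 form. The *Adcy9* window lies inside the annotated gene, whose 5′ end is at 4437236. It covers an internal start, and the outermost start of *Adcy9* was not examined. The *Adcy5* window also lies inside the annotated gene, whose 5′ end is at 35154494. The outermost start of *Adcy5* was therefore not examined either.
Adcy5: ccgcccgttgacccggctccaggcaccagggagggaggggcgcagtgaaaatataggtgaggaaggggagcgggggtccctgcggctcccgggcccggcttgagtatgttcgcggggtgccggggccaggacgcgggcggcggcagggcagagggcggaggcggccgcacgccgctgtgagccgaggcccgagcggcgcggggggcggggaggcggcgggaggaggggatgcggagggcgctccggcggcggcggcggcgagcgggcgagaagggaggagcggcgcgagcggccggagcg
Adcy9: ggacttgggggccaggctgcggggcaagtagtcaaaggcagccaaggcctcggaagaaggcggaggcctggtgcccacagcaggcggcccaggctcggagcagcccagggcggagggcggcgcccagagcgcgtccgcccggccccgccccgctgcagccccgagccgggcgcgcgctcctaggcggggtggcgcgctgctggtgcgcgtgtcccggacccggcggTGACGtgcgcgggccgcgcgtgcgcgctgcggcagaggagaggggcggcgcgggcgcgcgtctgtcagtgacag
Adcy1: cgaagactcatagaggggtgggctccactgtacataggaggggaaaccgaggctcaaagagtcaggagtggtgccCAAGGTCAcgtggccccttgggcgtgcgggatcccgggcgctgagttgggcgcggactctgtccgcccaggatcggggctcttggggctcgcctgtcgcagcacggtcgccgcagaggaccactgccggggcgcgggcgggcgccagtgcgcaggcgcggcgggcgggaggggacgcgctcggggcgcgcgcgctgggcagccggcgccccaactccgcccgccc

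The match in the *Adcy9* window began at position -24 from the start and that in the *Adcy1* window at -175, where the letters were CAAGGTCA. Over the 10 windows of 7 members, *Adcy3* included, the full element was found in 0, TGACG in 2 and the SF-1 form in 1. The other window with TGACG was 1 of 3 of *Adcy7*, at -28 on the opposite strand. Of all 32851 mouse windows of this length, 1.79% held the full element, 20.8% TGACG and 6.71% the SF-1 form. G and C made up 54.7% to 79.0% of the windows of the members, with the *Adcy5* window at the top, against a median of 52.7% over all windows. The windows of *Adcy4* and *Adcy7* and 1 of *Adcy3* were nearer that median, at 54.7% to 58.0%. A match is only a run of letters, and its absence says only that these letters are not in the window.

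The genes whose profile over the 8 arrays was most like that of each called member are given as a description. Likeness was the root mean square difference of centred log2 values, over 17287 genes. Nearest to *Adcy5* were *Cenpv*, which encodes a centromere protein (difference 0.084), *St3gal4*, a sialyltransferase (0.0892), and *Hsd17b10*, a mitochondrial dehydrogenase (0.0983). Nearest to *Adcy9* were *Adgrl2*, an adhesion receptor (0.0353), *Thra*, the thyroid hormone receptor alpha (0.0459), and *Txnrd2*, the mitochondrial thioredoxin reductase (0.0528). Nearest to *Adcy1* were *Ptms*, parathymosin (0.0327), *Spns3*, a member of a transporter family (0.0457), and *Mroh8* (0.047). All these genes were chosen for their likeness to a gene with a lower level in knockouts, so their own changes, from -0.56 to -0.23, carry no further information on the genotypes.

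Upstream of the enzymes, the receptor for ACTH and its partner moved in opposite directions. *Mc2r*, the ACTH receptor, was at 10.95, 10.73, 10.75 and 10.81 in wild-type and at 10.60, 9.81, 10.27 and 10.12 in knockout adrenals. *Mrap*, the accessory protein that carries the receptor to the cell surface, was at 10.34, 10.55, 10.47 and 10.26 in wild-type and at 11.15, 11.05, 11.00 and 11.03 in knockout adrenals. Neither overlapped between genotypes, and the changes were -0.61 for *Mc2r* (SE 0.142, limma adjusted p = 0.017) and 0.65 for *Mrap* (SE 0.0778, limma adjusted p = 0.000361). The *Mc2r* call was lost without knockout replicate 4, where the change was -0.58 (limma adjusted p = 0.0515), and its adjusted p was 0.0915 with the methods' t-test and 0.173 with the test for unequal variances. With the mean of adipocyte markers as a covariate the *Mc2r* change was -0.84 (limma adjusted p = 0.0617). The third member of the list, *Mrap2*, was not called (-0.13, limma adjusted p = 0.427).

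Of 20 measured G protein subunits, 1 was called higher and 19 were not called. *Gnb5*, the beta subunit that pairs with RGS proteins of the R7 group, was at 7.44, 7.55, 7.58 and 7.47 in wild-type and at 7.77, 7.83, 7.91 and 7.87 in knockout adrenals. All 4 knockout arrays lay above all wild-type arrays, with a change of 0.33 (SE 0.0648, limma adjusted p = 0.00635). *Gnas*, the stimulatory alpha subunit, was not called (-0.0747, 95% interval -0.22 to 0.0754, limma adjusted p = 0.551).

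Of 13 measured anchors and regulators of adenylyl cyclases, 2 were called higher, 1 lower and 10 were not called. *Rgs2* encodes an RGS protein that can also inhibit adenylyl cyclases directly, the *Adcy5* product among them. It was at 10.47, 10.07, 10.62 and 10.49 in wild-type and at 9.55, 9.40, 9.70 and 9.55 in knockout adrenals, a change of -0.86 (SE 0.116, limma adjusted p = 0.000717) with no overlap. *Prkca*, a protein kinase C that can stimulate several isoforms, rose by 0.40 (SE 0.0772, limma adjusted p = 0.00578), from 6.06 to 6.33 in wild-type to 6.53 to 6.73 in knockout adrenals. *Snapin*, a vesicle protein that binds the *Adcy6* product, was higher by 0.29 (SE 0.0717, limma adjusted p = 0.0225). This call was lost without knockout replicate 1, 3 or 4 or without wild-type replicate 2 or 3. It was also lost with the test for unequal variances, the adipocyte covariate and the replicate number as a block, at adjusted p-values of 0.117, 0.288 and 0.0594.

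The related enzymes of the same catalytic class did not pass the test, with 0 of 11 called by limma or by the methods' t-test and 2 at an unadjusted p under 0.05 from limma. *Adcy10*, the soluble adenylyl cyclase that bicarbonate activates, was at 3.68, 3.53, 4.05 and 3.65 in wild-type and at 3.42, 3.40, 3.46 and 3.39 in knockout adrenals, below background on all 8 arrays. The genotypes did not overlap, and the change of -0.31 (SE 0.102, limma adjusted p = 0.075) was called only without wild-type replicate 2, at -0.38 (limma adjusted p = 0.0453). The next in size were the guanylyl cyclases *Gucy2d* (-0.23), *Gucy1a1* (-0.18) and *Npr2* (-0.14), with limma adjusted p-values of 0.183, 0.493 and 0.224.

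The phosphodiesterases, which degrade cAMP, held more called genes than any other list of the pathway, with 6 of 16 higher, 2 lower and 8 not called. *Pde2a*, the isoform that cGMP stimulates, was at 10.69, 10.42, 10.44 and 10.05 in wild-type and at 9.06, 8.86, 8.80 and 9.14 in knockout adrenals, a change of -1.43 (SE 0.13, limma adjusted p = 6.98e-05). *Pde1a*, a calmodulin-dependent isoform, was at 6.57, 6.77, 6.87 and 6.95 and at 7.75, 8.03, 7.97 and 8.20, a change of 1.20 (SE 0.109, limma adjusted p = 6.98e-05). The cAMP-specific isoforms *Pde7a* and *Pde7b* changed in opposite directions, by -1.18 (SE 0.179, limma adjusted p = 0.00155) and 1.04 (SE 0.109, limma adjusted p = 0.000165). *Pde7a* was not called by the test for unequal variances (adjusted p = 0.111). None of the 4 overlapped between genotypes, and each of these changes was larger than that of any adenylyl cyclase.

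Of 8 measured PKA subunits and inhibitors, *Prkar1a* itself was the only one called. The next in size were the regulatory subunits *Prkar2b* (0.28) and *Prkar2a* (0.19) and the catalytic subunit *Prkacb* (-0.0912), with limma adjusted p-values of 0.335, 0.194 and 0.627. Of 12 other effectors and exporters of cAMP, 2 were higher and 10 were not called. *Abcc4*, a transporter that exports cAMP, was at 7.60, 7.60, 7.59 and 7.33 in wild-type and at 7.93, 8.07, 8.11 and 8.10 in knockout adrenals, a change of 0.52 (SE 0.0815, limma adjusted p = 0.00183). With the adipocyte covariate the *Abcc4* change was 0.51 and was not called (limma adjusted p = 0.0711). *Cnga1*, a cyclic nucleotide-gated channel of rods, was higher by 0.48 (SE 0.126, limma adjusted p = 0.0301), at values of 3.99 to 4.98 that lay below background, and its call was lost without knockout replicate 2, 3 or 4 or without wild-type replicate 2, 3 or 4. The *Cnga1* call was also lost with the methods' t-test, the test for unequal variances, the adipocyte covariate and the replicate block, at adjusted p-values of 0.115, 0.173, 0.245 and 0.0509. *Cnga2* (-0.12) and *Hcn4* (-0.11), further cyclic nucleotide-gated channels, had limma adjusted p-values of 0.389 and 0.374. Over all these lists, 17 of 83 pathway genes were called, beside 13.5% of all clusters. The 17 include *Prkar1a*, which was deleted by design, and the phosphodiesterases, 6 higher and 2 lower. The pooled count is therefore not a share that holds across the lists.

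**Figure D3:**
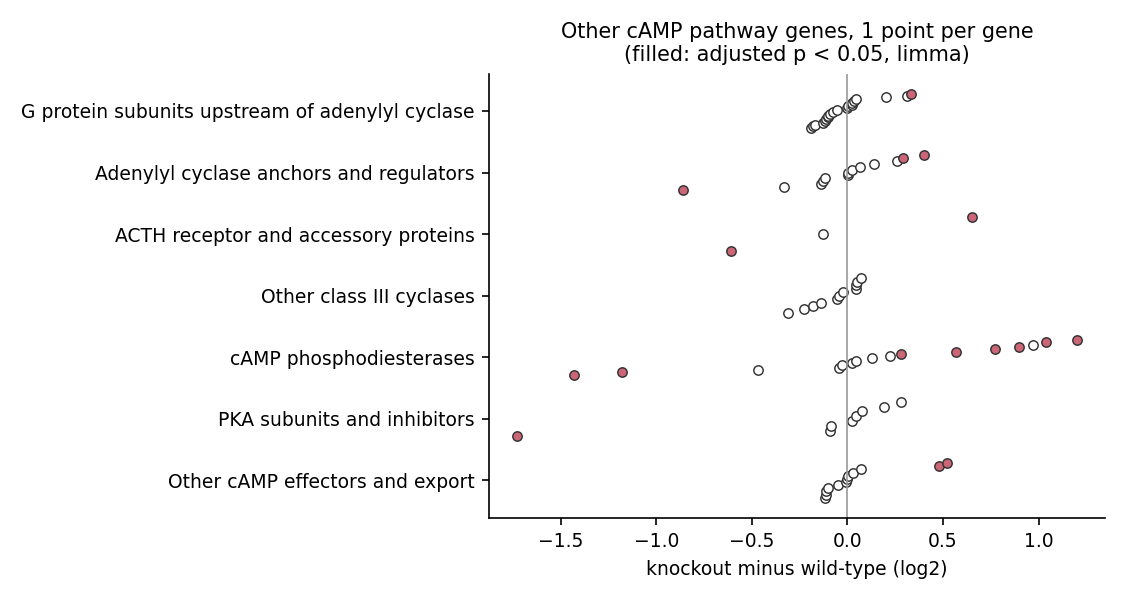
Change of each other measured gene of the cAMP pathway in knockout adrenals (horizontal axis, log2), in 7 lists, with 1 point per gene and filled points for a limma adjusted p under 0.05. The filled point farthest to the left is *Prkar1a* at -1.73, and the phosphodiesterases spread from -1.43 (*Pde2a*) to 1.20 (*Pde1a*).

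Markers of other cells moved with genotype. Of 10 measured adipocyte markers, 7 were lower in knockout adrenals by limma and 3 were not called, while the methods' t-test called 0 of them. Among those not called, *Lep* had the higher mean in knockouts, by 1.05 (limma adjusted p = 0.233). The mean of the 10 markers per array was 8.07 to 10.08 in wild-type and 6.75 to 8.46 in knockout adrenals. Of 8 markers of the zona glomerulosa, the outer zone of the cortex that makes aldosterone, 7 were lower, with means of 8.98 to 9.35 and 6.99 to 7.28. Of 9 endothelial markers 4 were higher, with means of 8.70 to 8.89 and 8.91 to 9.14, and of 8 capsule and fibroblast markers 2 were higher and 1 lower. Limma and the methods' t-test called 0 of 10 immune, 7 smooth muscle, 5 Schwann and glial or 7 kidney markers, with 1, 1, 1 and 0 at an unadjusted p under 0.05 from limma. The part of the zona glomerulosa, endothelial and capsule cells in the lower levels of *Adcy5*, *Adcy9* and *Adcy1* was not tested. The paper also reports an outward spread of fetal-like cells in adrenals of this knockout. No marker list here covered those cells, and their part was not tested either.

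Adipocytes themselves use adenylyl cyclases, so the members were set beside the adipocyte mean on each array. Wild-type replicate 1, at 8.07, was the only wild-type array within the knockout range of that mean. Not every marker on this array lay within the knockout range. *Ucp1* was at 5.95 and *Cidea* at 6.50, above the knockout arrays at 4.25 to 4.96 and 4.83 to 5.84. On wild-type replicate 1, *Adcy5* was at 5.90 and *Adcy9* at 8.78, both above all 4 knockout arrays. With knockout replicates in order of rising adipocyte mean (1, 2, 4 and 3), *Adcy5* was at 5.32, 5.39, 5.56 and 5.64. In that order *Adcy9* was at 8.14, 8.26, 8.16 and 8.23. Wild-type replicates in order of that mean (1, 3, 2 and 4) had *Adcy5* at 5.90, 5.89, 6.20 and 6.10. Without wild-type replicate 1, the change was -0.59 for *Adcy5* and -0.44 for *Adcy9*, with limma adjusted p-values of 0.00586 and 0.0121. With the adipocyte mean as a covariate in limma, the changes were -0.30 for *Adcy5*, -0.56 for *Adcy9* and -0.40 for *Adcy1*, with adjusted p-values of 0.28, 0.0559 and 0.0796. No member was then called, 0 of 8, with 3 at an unadjusted p under 0.05, where limma without the covariate called 3 and the methods' t-test 2. The estimate thus moved toward 0 for *Adcy5* and away from 0 for *Adcy9* and *Adcy1*. Calls over the whole table fell with the covariate as well, to 650 higher and 489 lower clusters from 1678 and 1407. Apart from wild-type replicate 1, the genotypes did not overlap in the adipocyte mean. Adipocyte content and genotype therefore cannot be told apart on these arrays.

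**Figure D4:**
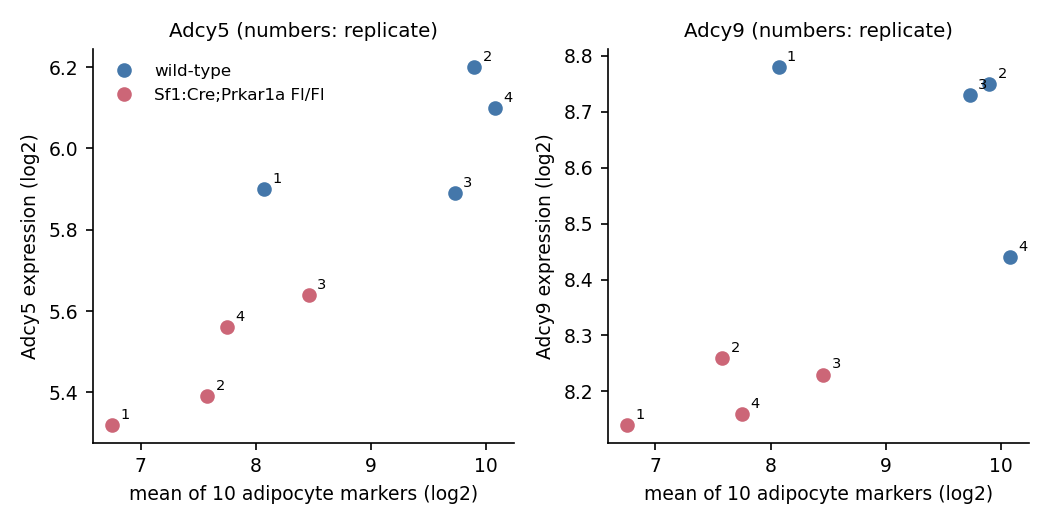
Expression of *Adcy5* (left) and *Adcy9* (right) on the log2 scale against the mean of 10 adipocyte markers on the same array, with 1 point per array and replicate numbers beside the points. Wild-type replicate 1, at an adipocyte mean of 8.07, lies above all 4 knockout arrays in both panels. Among knockout arrays, *Adcy5* rises from 5.32 to 5.64 in the order of that mean. Among wild-type arrays in that order it is at 5.90, 5.89, 6.20 and 6.10.

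**Figure D5:**
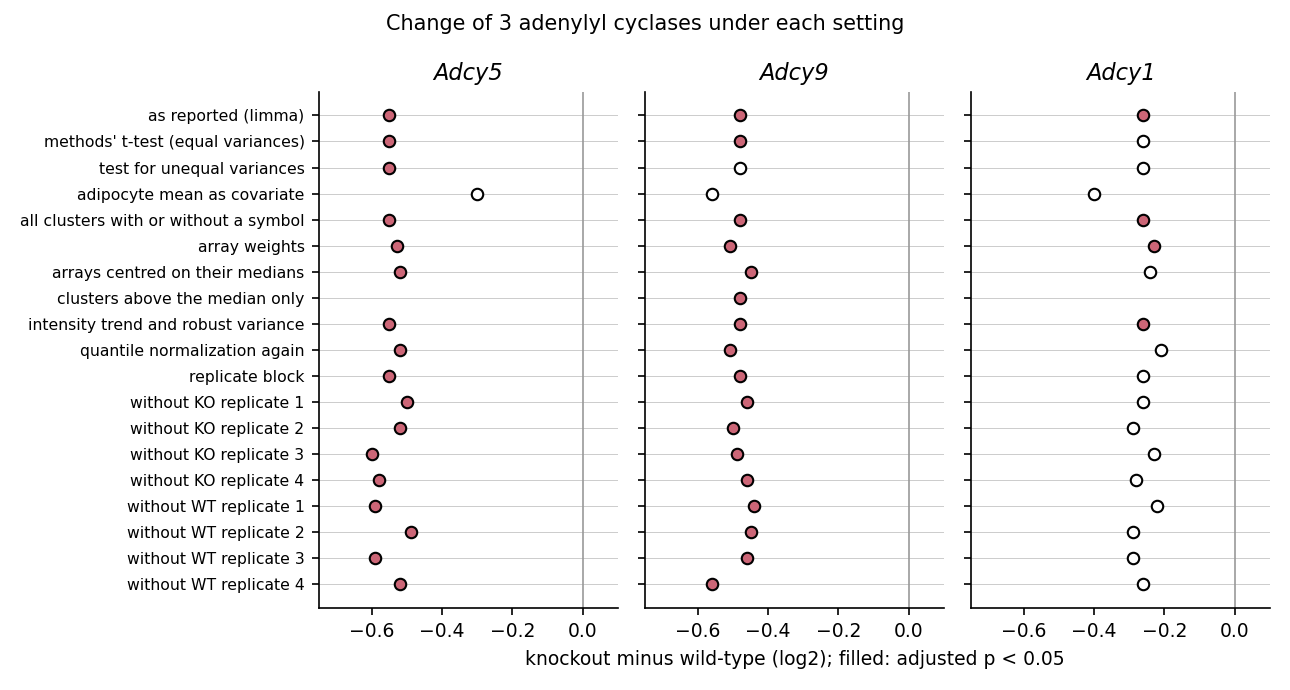
Change of *Adcy5*, *Adcy9* and *Adcy1* (horizontal axis, log2) under each setting (vertical axis), where KO stands for knockout and WT for wild-type, with filled points for an adjusted p under 0.05. Every estimate is below 0, and *Adcy1* is open in 14 of its 17 alternatives, while *Adcy5* is open in 1 and *Adcy9* in 2.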

How the data were processed

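Whole adrenals of 4 wild-type and 4 knockout mice were measured on Affymetrix Mouse Gene 2.0 ST arrays. The authors normalized the arrays by RMA (affy package, version not given in the sources used here), and the deposited log2 values were used as they stand. A further deposited table, holding log2 fold changes and adjusted p-values of the authors' own comparison, was not used. Groups follow the genotype labels.

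The table holds 28067 transcript clusters. Tests used the 22822 with exactly 1 gene symbol, leaving out 1703 with several and 3542 with none given. For the 779 symbols on several clusters, the cluster with the highest mean stood for the gene. Gene identifiers of 22679 clusters were found in RefSeq. Genotypes were compared by the lmFit and eBayes functions of limma 3.58.1 (R 4.3.3), two-sided, with Benjamini–Hochberg adjustment over all clusters tested, and tables were made with Python 3.11.15 and pandas 2.3.3. The scripts were tested on simulated data. The smallest two-sided p of an exact permutation test with 4 against 4 arrays is 0.0286.

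The members, gene lists and tests were chosen with earlier results of these data known, including values of some members. Named genes are all members, *Adcy10*, *Prkar1a*, every called gene among G protein subunits, anchors and regulators, and ACTH receptor proteins, up to 4 of the largest changes in each other pathway list, and the 3 nearest profiles of each called member, leaving out other members, predicted genes, non-coding genes and olfactory receptors. *Gnas*, *Mrap2*, *Lep*, *Ucp1* and *Cidea* were added after their values were seen. *Mc2r* is also a marker of the steroidogenic cortex list, of which 3 of 9 were higher, 1 lower and 5 not called. Of 8 chromaffin markers, 1 was higher. Counts over a list cover its measured genes, and other genes of the lists are not reported here. The alternatives were the methods' t-test, Welch's test, the replicate number as a block and clusters above the median only. Others were an intensity trend with robust variances, array weights, centring, quantile normalization again and all clusters. The adipocyte mean as a covariate, each array left out in turn, and other background sets were also used. The methods do not state the form of their t-test, and equal variances were taken here under that name.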

Additional observations from a re-analysis of the deposited data

Results flagged for a closer look

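The groups tested were the named genes, other than those added after their values were seen, in each genotype. Of 78 groups of 4 arrays, 3 held an array that stood apart by Dixon's test, and all 3 were wild-type replicate 4. *Adcy9* was at 8.44 there, against 8.73 on the nearest wild-type array and 8.78 on the highest. *Abcc4* was at 7.33, against 7.59 and 7.60. *Adgrl2*, named because its profile resembles that of *Adcy9*, was at 8.80, against 9.08 and 9.09. At its threshold the test marks some groups by chance. Without this array the changes of *Adcy9* and *Abcc4* were -0.56 and 0.45, with limma adjusted p-values of 0.000703 and 0.00289.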

How the results depend on the processing

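With Welch's test, 710 clusters were higher and 492 lower, 1 adenylyl cyclase was called (*Adcy5*) and 10 pathway genes. With the methods' t-test, 1197 were higher and 920 lower, and 2 adenylyl cyclases were called. With a change beyond 1 there were 218 higher and 152 lower, against 246 and 212 with limma. The paper reports larger counts in both directions at these limits, and the cause of the difference was not tested. With the adipocyte mean as a covariate, 650 were higher, 489 lower and 0 adenylyl cyclases called by limma, 3 of them at an unadjusted p under 0.05. Among clusters above the median only, 1 adenylyl cyclase was called, since *Adcy1*, *Adcy2*, *Adcy5* and *Adcy8* were not in that set. Above the 99th percentile of olfactory receptors there were 3 members, and above that of vomeronasal receptors 1.

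*Adcy1* was not called with the methods' t-test (-0.26), Welch's test (-0.26), the covariate (-0.40), centring (-0.24), quantile normalization again (-0.21) or, leaving out each array, at -0.29 to -0.22. *Adcy5* was not called with the covariate (-0.30), nor *Adcy9* with Welch's test (-0.48) or the covariate (-0.56). Leaving out each array gave -0.60 to -0.49 for *Adcy5* and -0.56 to -0.44 for *Adcy9*, called each time. *Adcy8* changed sign with the covariate (-0.17), without knockout replicate 4 (-0.0178) and without wild-type replicate 4 (-0.0428), reaching 0.11 at most. The cause was not tested. No member had another cluster of its own, so that alternative could not be run.

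Arrays of the same replicate number had residual correlations of -0.0142, 0.0209, 0.0424 and -0.0402. These lay within the range of arrays of different number, -0.129 to 0.152. The correlations gave no sign of pairing by number, but so few values cannot exclude it. With the replicate block, 1423 clusters were higher and 1185 lower, 2 adenylyl cyclases were called, and *Adcy1* was not (-0.26, limma adjusted p = 0.0766).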
